A study of Macaca mulatta with 8 samples.

Results

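Molecular chaperones and their partners, the heat shock and protein folding genes, were described in rhesus macaque eggs that had matured in culture and eggs that had matured in the animal. Members were the probe sets whose only gene symbol in the platform annotation marked a heat shock protein (HSPA, HSPB, HSPH, HSP90), a J-domain protein (DNAJ), a subunit of the cytosolic chaperonin (CCT, TCP1) or of prefoldin (PFDN), a BAG protein, a protein disulfide isomerase (PDIA), or one of STIP1, CRYAB, CANX, HSF1 and HSF2. They numbered 167 of 52766 probe sets and stood for 79 of the 14132 genes named by probe sets with 1 symbol. The rule read gene symbols and no signals. Under this rule no probe set was listed for HSPA1A, HSPA1B, HSPA2, HSPA5, HSPD1, HSPE1, HSPB1 or CALR, which were not analysed here.

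The study compared metaphase II oocytes, the arrested stage that awaits fertilization, of Macaca mulatta. The in vitro group was 4 arrays of oocytes matured in culture, and the in vivo group was 4 arrays of oocytes matured in the animal. Each array carried twice-amplified, biotin-labelled cRNA from a pool of 4 oocytes. The labels used here describe the replicates as biological and name no hormone treatment, culture medium, animal age or donor, so p-values measure only the spread between these pools.

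Chaperones bind unfolded or partly folded proteins and keep them from aggregating while they reach their final shape. The HSP70 machine works in a cycle of ATP use in which J-domain proteins bring the substrate and start hydrolysis, and nucleotide exchange factors such as the BAG proteins and HSP110 reset it. HSP90, fed by the adaptor STIP1, brings kinases and receptors to maturity. The transcription factor HSF1 switches on the inducible members after heat or oxidative stress, and in the mouse it is also needed in the oocyte for normal meiosis. A metaphase II oocyte makes little new RNA, so its chaperone mRNAs are mainly those stored during growth.

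Signals are the authors' linear MAS5 values, and each array had a trimmed mean of about 150 (149.5 to 149.9). Background on an array was set at the 95th percentile of 59 control probe sets that match no monkey RNA, and lay between 15.7 and 27.0. Between 49.9% and 60.9% of all probe sets and between 124 and 139 of the 167 members were above it on an array. All 10 oocyte markers were above background on all 8 arrays. Of 12 granulosa and cumulus markers, 8 were above it on all arrays and NR5A1 on none, and their summed signal, most of it SERPINE2 and VCAN, ran from 16887 to 24105 in vitro and from 16582 to 21943 in vivo. Among them INHBA rose to 1483 ± 751 in vitro, against 165 ± 72.4 in vivo, and STAR to 1181 ± 490 in vitro, against 191 ± 98.9 in vivo (SD, n = 4 each; limma adjusted p = 0.00226 and 0.00861). HSD3B2 averaged 244 ± 150 in vitro and 55.9 ± 45.8 in vivo without overlap (adjusted p = 0.214), and INHA averaged 641 ± 109 in vitro and 428 ± 104 in vivo (adjusted p = 0.370). Of the 11 tested granulosa and cumulus markers, 6 had a log2 fold change (in vitro minus in vivo) above 0 and 5 below it. Their median was 0.01. The 5 below it were PTX3 (-0.47), HAS2 (-0.38), SERPINE2 (-0.13), TNFAIP6 (-0.12) and AMH (-0.03). The part of granulosa and cumulus cells in the chaperone values was not tested. No blood marker of 6 was above background on all arrays. Their summed signals were 81.1 to 179.4 in vitro and 176.1 to 276.7 in vivo. CD68 was above background on 0 in vitro and 4 in vivo arrays, and S100A8 on 2 and 4. HBB and AIF1 were each above it on 1 and 3, PTPRC on 0 and 1, and CD14 on 4 and 3. Of the 5 tested, 4 had a log2 fold change below 0 and 1, CD14, above it, with a median of -0.50. The smallest limma adjusted p was 0.525, for CD68. The part of blood cells in the chaperone values was not tested either. The log2 ratio of 3' to 5' signal at the EEF1A1 control, which grows when the 5' part of the transcript is lost, was 1.97, 2.30, 2.10 and 1.84 on in vitro arrays 1 to 4, and 1.44, 2.95, 1.44 and 3.68 on in vivo arrays 1 to 4. At EEF1A1 the in vivo arrays thus fell on both sides of the in vitro range, 1 and 3 below it and 2 and 4 above it. In the same order, the beta-actin ratio was 5.68, 6.46, 6.75 and 6.12 in vitro, and 6.23, 7.23, 5.68 and 6.75 in vivo. The GAPDH ratio was 4.77, 5.56, 4.97 and 4.87 in vitro, and 4.62, 5.63, 4.37 and 4.63 in vivo. In vivo array 4 was thus level with the top of the in vitro range at beta-actin and below that range at GAPDH. In such pools, less RNA per oocyte and fewer oocytes that carry a transcript cannot be told apart.

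No chaperone transcript passed the test between eggs matured in culture and eggs matured in the animal (limma, Benjamini-Hochberg adjusted p under 0.05 over 26383 tested probe sets), against 0.144% of all tested probe sets, and the smallest adjusted p of a member was 0.248. The test covered the 132 member probe sets, for 69 genes, whose mean over all 8 arrays lay above the median of all probe sets, and the other 35 were dimmer than that. Of the 132, 67 had a log2 fold change (in vitro minus in vivo) above 0 and 65 below it, from -1.44 to 0.79. Their median was 0.01, and the median of all tested probe sets was also 0.01.

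At an unadjusted limma p under 0.05, 6 members (4.55%) were higher in vitro, against 4.7% of all tested probe sets, and 7 members (5.30%) were lower, against 5.53%. Those shares sit at the background. Groups whose 4 values did not overlap numbered 2 members higher in vitro (1.52%, against 3.17% of all tested) and 6 lower (4.55%, against 3.11%). A difference of more than 2-fold was measured at 2 members (1.52%), against 2.95% of all tested probe sets. The 95% interval of the fold change stayed within 2-fold in either direction for 89 of the 132 members (67.4%), against 55.7% of all tested probe sets. Among tested probe sets with 1 symbol, as all members have, 2.71% differed more than 2-fold and 60.9% had such an interval. For the other 43 members a 2-fold difference lay inside the interval.

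**Figure D1:**
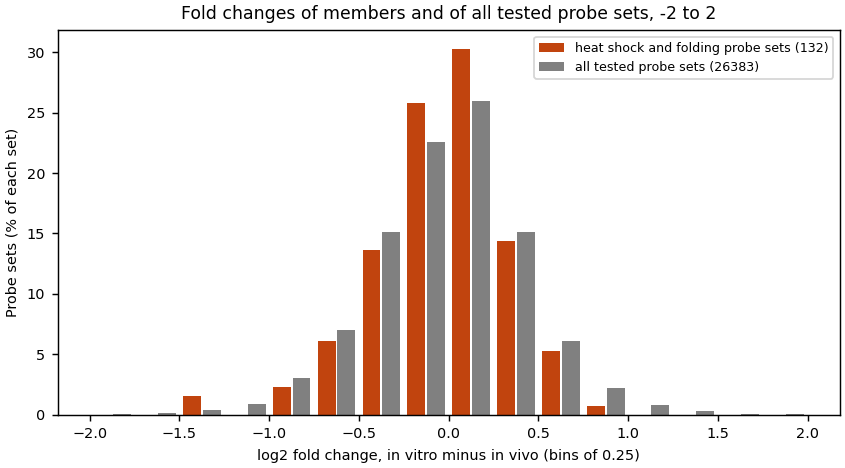
Share of probe sets (y axis, percent of each set) in bins of 0.25 of the log2 fold change, in vitro minus in vivo (x axis), for the 132 tested heat shock and folding probe sets and for all 26383 tested probe sets. Both sets centre at 0, and the members' lowest values, near -1.4, are 2 probe sets of HSPA4.

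Taking only the brightest probe set of each gene gave 69 tested genes, of which 32 had a log2 fold change above 0 and 37 below it, with a median of -0.05. The interval stayed within 2-fold for 49 of them. The widest intervals belonged to HSPH1 and CCT7, whose values varied strongly between the in vivo arrays.

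**Figure D2:**
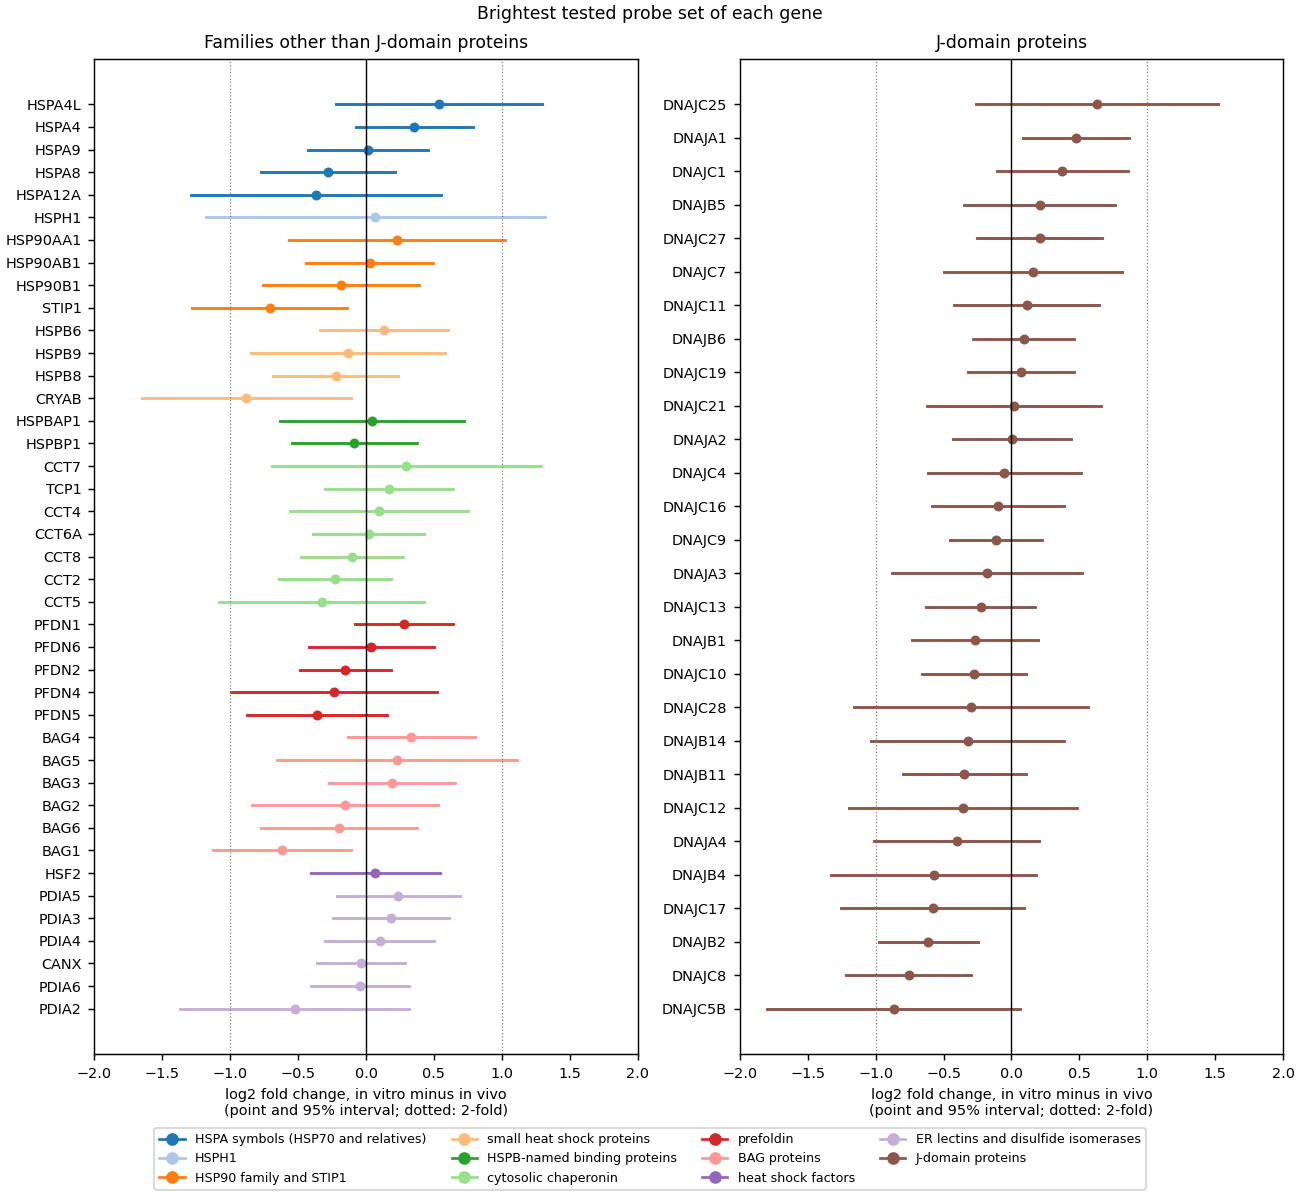
Log2 fold change, in vitro minus in vivo (x axis), of the brightest probe set of each of the 69 tested genes (rows), with its 95% interval as a bar, coloured by family, and dotted lines at 2-fold. All 69 points lie between -0.88 (CRYAB) and 0.63 (DNAJC25) and 6 bars do not reach 0.

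The HSPA genes encode HSP70 chaperones and close relatives. They had 17 probe sets for 7 genes, of which 11 were tested and none passed, with a median log2 fold change of -0.03. HSPA8 encodes the constitutive cytosolic HSP70, which folds new proteins and strips clathrin from vesicles. Its brightest probe set had signals of 5771.8, 5401.4, 5962.1 and 4785.4 in vitro, against 5188.3, 6336, 5066.3 and 11645.2 in vivo. In vivo array 4 was far above the rest, and the groups overlapped (log2 fold change -0.28 ± 0.23 SE, limma adjusted p = 0.713). A second HSPA8 probe set was steadier, at 4568 ± 330 in vitro and 4826 ± 551 in vivo (SD, n = 4 each), with a log2 fold change of -0.07 and an interval from -0.40 to 0.25. HSPA9 encodes the mitochondrial HSP70 that pulls imported proteins into the matrix. Its brighter probe set averaged 489 ± 99.4 in vitro and 481 ± 78.5 in vivo (log2 fold change 0.02), and its second tested one had 0.16.

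HSPA4 belongs to the HSP110 branch, which acts as a nucleotide exchange factor for HSP70, and its probe sets differed in sign. The probe set with a mean signal of 549 read 281.2, 242.8, 280.2 and 191.9 in vitro, against 286.2, 1006, 1751 and 354.1 in vivo. The one with a mean signal of 96.4 read 29.2, 50.9, 32 and 61.2 in vitro, against 65.1, 194.6, 264.8 and 73.4 in vivo. At both, every in vivo array was above every in vitro array, and in vivo arrays 2 and 3 were far above arrays 1 and 4. The log2 fold changes were -1.38 ± 0.44 (SE) and -1.44 ± 0.41, the 2 most negative among the members, with limma adjusted p-values of 0.309 and 0.258. Without in vivo array 3 they were -0.91 and -1.10, and without in vivo array 1 they were -1.76 and -1.73.

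The brightest HSPA4 probe set went the other way. It read 1152.4, 1394.8, 1143.8 and 1913.2 in vitro, against 931.2, 1251.1, 1202.1 and 932.2 in vivo. The groups overlapped, with in vitro array 4 highest (log2 fold change 0.36 ± 0.20 SE, limma adjusted p = 0.577). The remaining tested probe sets had -0.03 and 0.48, and a dim one was not tested. Which part of the transcript each probe set covers was not analysed here.

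**Figure D3:**
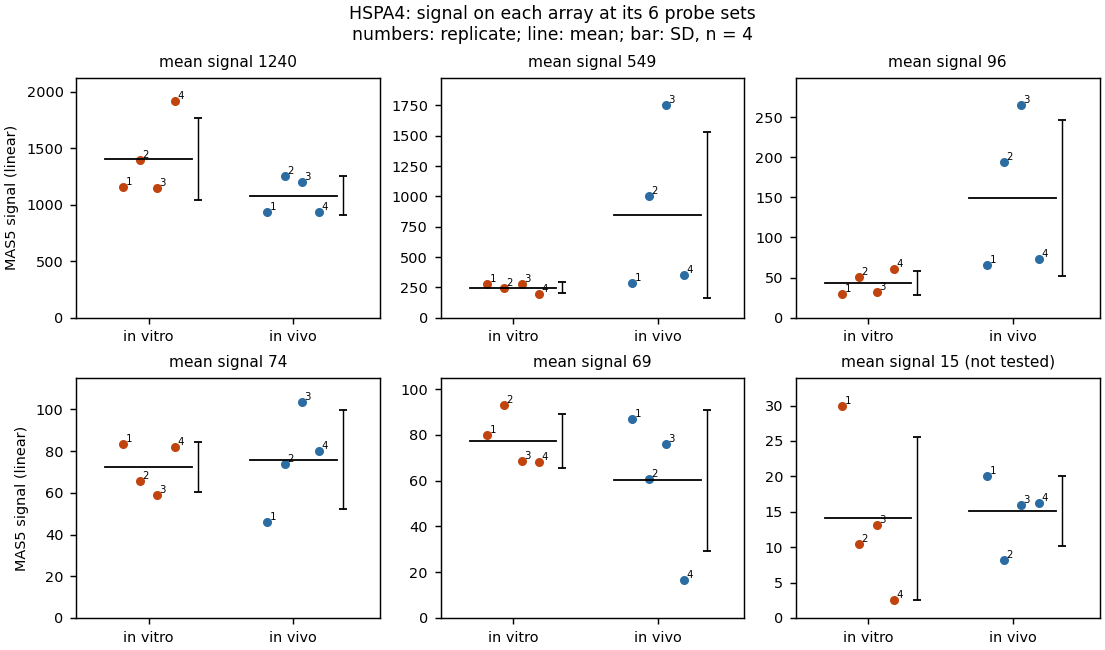
MAS5 signal (y axis, linear, from 0, scaled separately in each panel) of the 6 HSPA4 probe sets on each array, in vitro on the left and in vivo on the right, with replicate numbers, the mean as a line and the SD as a bar (n = 4). At the probe sets of mean signal 549 and 96 the in vivo values reach 1751 and 264.8 on array 3, while at the brightest one the in vitro mean is the higher.

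HSPA4L, a relative of HSPA4 that is abundant in mouse testis, read 44.9, 40.5, 43.8 and 37.6 in vitro, against 15.4, 22.4, 46.4 and 26.8 in vivo. It was above background on 4 in vitro arrays and 2 in vivo arrays, and its log2 fold change was 0.54 ± 0.35 (SE; limma adjusted p = 0.639). HSPA12A, a distant HSP70 relative, had -0.37 ± 0.43, with signals between 11.1 and 58.4 in vitro and between 25.1 and 38.6 in vivo. HSPA6, a strictly stress-inducible HSP70 in human cells, lay under the filter on dim signals and read 9.3, 16.8, 23.9 and 25.6 in vitro, against 65.5, 8.2, 51.5 and 5.4 in vivo. Its in vivo values split into high readings on arrays 1 and 3 and low ones on arrays 2 and 4.

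HSPH1, the founding HSP110 chaperone and a heat-inducible gene, had 6 probe sets, of which 2 were tested. The brighter read 172.6, 117.7, 358.4 and 165.5 in vitro, against 275.6, 68, 704.6 and 69.7 in vivo. The in vivo arrays spanned values both below and above all in vitro arrays, with arrays 1 and 3 high and arrays 2 and 4 low, so the log2 fold change of 0.07 carried an interval from -1.18 to 1.31. The other tested probe set split the same way in vivo, at 73.1, 19.2, 70.6 and 8.2, against 34.4, 20.4, 27.7 and 11.3 in vitro (log2 fold change -0.44 ± 0.53 SE). The EEF1A1 ratio given above was low on in vivo arrays 1 and 3 and high on 2 and 4. The GAPDH ratio was above the in vitro range on in vivo array 2 only, and the part of either ratio in these readings was not tested.

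HSP90 genes had 7 tested probe sets together with STIP1, none of which passed, with a median log2 fold change of 0.07. HSP90AB1 encodes the constitutive cytosolic HSP90. Its brightest probe set read 9981.7, 9341.1, 9148.9 and 7612.6 in vitro, against 7831.2, 8483.8, 6272.2 and 14483 in vivo. As for HSPA8, in vivo array 4 held the highest value of all 8, and the log2 fold change was 0.03 with an interval from -0.44 to 0.49. The second brightest read 7229.8, 6472.9, 5266.6 and 6447.1 in vitro, against 5538.3, 4682.2, 5317.6 and 4257.5 in vivo. Here in vivo array 4 was the lowest, 3 of the 4 in vitro arrays lay above all in vivo arrays, and the log2 fold change was 0.36 ± 0.16 (SE; limma unadjusted p = 0.0389, adjusted p = 0.458). The remaining HSP90AB1 probe sets had 0.07 and 0.15.

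HSP90AA1, the inducible cytosolic form, had a single dim probe set, at 20.9 to 31.9 in vitro and 15.4 to 25.7 in vivo (log2 fold change 0.23 ± 0.37 SE). HSP90B1, the endoplasmic reticulum form, averaged 227 ± 63.2 in vitro and 261 ± 73.7 in vivo (SD, n = 4 each; log2 fold change -0.18). STIP1 encodes the adaptor that hands clients of HSP70 over to HSP90. Its signals were 225.1, 215.1, 229.7 and 163.5 in vitro, against 360, 274.8, 585.4 and 238 in vivo. All in vitro values lay below all in vivo values, the highest again on in vivo arrays 1 and 3. The log2 fold change was -0.71 ± 0.27 (SE, interval -1.28 to -0.14), with a limma adjusted p of 0.384.

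Small heat shock proteins hold unfolded proteins without using ATP. CRYAB, or alpha B-crystallin, read 135.2, 233.6, 162.6 and 158.5 in vitro, against 590.1, 279.8, 448.3 and 136.1 in vivo. In vivo arrays 1, 2 and 3 were above every in vitro array and in vivo array 4 was at the low end of the in vitro range. Its log2 fold change of -0.88 ± 0.36 (SE) had a limma adjusted p of 0.420. With the EEF1A1 ratio as a covariate CRYAB was the 1 member past the threshold (log2 fold change -1.11, limma adjusted p = 0.0487). That was 0.76% of the 132 tested members, against 1.11% of all tested probe sets in the same setting. Leaving out each array in turn gave log2 fold changes from -1.27 (without in vivo array 4) to -0.59 (without in vivo array 1). A dim CRYAB probe set, above background on 1 array of each group, was not tested.

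HSPB8, which pairs with BAG3 to send misfolded proteins to autophagy, had 2 tested probe sets that differed in sign. The brighter averaged 898 ± 166 in vitro and 1059 ± 286 in vivo (log2 fold change -0.22, limma adjusted p = 0.762). The other read 152.2, 111, 88.5 and 94.4 in vitro, against 52.9, 41.9, 118.9 and 55.5 in vivo, and 3 of its 4 in vivo values were below all in vitro values (log2 fold change 0.73 ± 0.32 SE, limma adjusted p = 0.450). HSPB6, a small heat shock protein known from muscle, gave 0.13 at its brighter probe set and -0.65 at the other. HSPB9 had -0.13. HSPBP1 and HSPBAP1 share only the start of the symbol. HSPBP1, an exchange factor for HSP70, averaged 739 ± 139 in vitro and 790 ± 173 in vivo (log2 fold change -0.09). HSPBAP1, named for binding a small heat shock protein, had 0.04 at its brighter probe set and 0.48 ± 0.23 (SE) at the other (limma adjusted p = 0.502).

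The cytosolic chaperonin is a double ring that folds actin and tubulin, and its log2 fold changes lay close to 0. Of its 20 probe sets, 17 were above background on all arrays and 18 were tested. None passed and none had an unadjusted limma p under 0.05, and they ran from -0.33 to 0.30 with a median of 0.04. The interval lay within 2-fold for 16 of the 18. TCP1, the subunit that gave the complex its name, read 3627.5, 3122.7, 3237 and 3660.1 in vitro, against 3738.6, 3037.4, 4043.8 and 1821 in vivo at its brightest probe set. In vivo array 4 was the lowest and the in vitro values lay inside the in vivo range (log2 fold change 0.17). Its other probe sets had 0.07 and 0.18.

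CCT2 had 9 tested probe sets, the most of any member, with log2 fold changes from -0.25 to 0.29, 5 of them below 0. At the brightest it averaged 2363 ± 105 in vitro and 2848 ± 824 in vivo (SD, n = 4 each; log2 fold change -0.23). CCT6A averaged 3491 ± 363 in vitro and 3526 ± 978 in vivo (log2 fold change 0.02), and CCT8 averaged 2438 ± 195 in vitro and 2658 ± 512 in vivo (log2 fold change -0.10). CCT5 and CCT7 varied strongly among the in vivo arrays. CCT5 read 175.7, 242.3, 271.7 and 260 in vitro, against 346.7, 170.6, 673.2 and 189.6 in vivo, again with in vivo arrays 1 and 3 on top (log2 fold change -0.33 ± 0.35 SE). CCT7 showed that order too, at 112.8, 19, 95.7 and 22.8 in vivo, against 66.1, 87.1, 48.4 and 52.2 in vitro (log2 fold change 0.30 ± 0.46 SE).

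Prefoldin captures unfolded actin and tubulin and passes them to the chaperonin. Of its 8 tested probe sets none passed, 5 had log2 fold changes above 0, and 7 had intervals within 2-fold. PFDN1 read 2735.4, 2773.9, 2612.8 and 2157.7 in vitro, against 1989.9, 2281.8, 1758.7 and 2456.1 in vivo. The groups overlapped, with 3 in vitro arrays above all in vivo arrays (log2 fold change 0.28 ± 0.17 SE, limma adjusted p = 0.594), and its second tested probe set had 0.40. PFDN2 averaged 1496 ± 77.6 in vitro and 1668 ± 164 in vivo (log2 fold change -0.15), and PFDN5 averaged 234 ± 14.6 in vitro and 314 ± 92.2 in vivo (log2 fold change -0.36). PFDN4 had -0.24 and 0.08 at its probe sets.

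J-domain proteins were the largest family, with 68 probe sets for 32 genes, of which 55 for 28 genes were tested. None passed, 25 had log2 fold changes above 0 and 30 below it, with a median of -0.05. At an unadjusted limma p under 0.05, 4 (7.27%) were higher in vitro, against 4.7% of all tested probe sets, and 2 (3.64%) were lower, against 5.53%. Each J-domain protein brings its own clients or its own place in the cell to HSP70.

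DNAJB2, which also binds ubiquitin and guides clients to the proteasome, had the smallest adjusted p of all members. It read 627.1, 728.3, 614.1 and 563.4 in vitro, against 914.1, 1026.8, 1064.5 and 880.5 in vivo. The groups were tight and did not overlap (log2 fold change -0.61 ± 0.17 SE, interval -0.98 to -0.25, limma adjusted p = 0.248). Leaving out each array in turn gave -0.68 to -0.56. DNAJC8, a nuclear protein associated with splicing factors, read 181.2, 198, 173.1 and 146.4 in vitro, against 258.4, 270.1, 392.4 and 291.9 in vivo. The groups were again apart (log2 fold change -0.76 ± 0.21 SE, limma adjusted p = 0.252), and leaving out each array gave -0.82 to -0.63. A second, dim DNAJC8 probe set had the opposite sign (0.79 ± 0.49 SE), at 25.5, 32.5, 47.7 and 51.6 in vitro, against 9.2, 4.2, 37.4 and 43.7 in vivo.

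DNAJA1, a main cytosolic partner of HSPA8, had the smallest p among the members higher in vitro. Its brightest probe set read 1430.6, 1338.3, 1393.2 and 1843.5 in vitro, against 1328.6, 1013.4, 1082.2 and 897.7 in vivo. The lowest in vitro value lay just above the highest in vivo value (log2 fold change 0.47 ± 0.18 SE, limma adjusted p = 0.392). The probe set with a mean signal of 415 read 685.6, 390.7, 535.1 and 435.8 in vitro, against 379.7, 266.3, 402.8 and 227.2 in vivo, and overlapped only through in vitro array 2 and in vivo array 3 (log2 fold change 0.67 ± 0.24 SE, limma adjusted p = 0.361). The remaining one had the opposite sign (-0.29 ± 0.31 SE), with 1235.1 on in vivo array 3 and 621.3 on in vivo array 2, against 381.9 to 548 in vitro.

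DNAJC27, a small GTPase-like protein with a J domain, had 4 tested probe sets. That with a mean signal of 409 read 466.4, 419.5, 436.6 and 574.7 in vitro, against 361.7, 351.6, 257.3 and 400.5 in vivo. Its groups did not overlap (log2 fold change 0.47 ± 0.20 SE, limma adjusted p = 0.455), while the brightest had 0.21 and the other tested ones -0.11 and -0.03. DNAJC7, whose repeats bind both HSP70 and HSP90, had 0.16 at its brighter probe set and 0.59 ± 0.26 (SE, limma adjusted p = 0.463) at the other.

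DNAJC5B, a cysteine string protein known from the testis, read 80.3, 119.5, 118.9 and 62.1 in vitro, against 322.8, 102, 362.7 and 74.3 in vivo. This brightest probe set followed the order of HSPH1, high on in vivo arrays 1 and 3 and inside the in vitro range on arrays 2 and 4 (log2 fold change -0.87 ± 0.43 SE, limma adjusted p = 0.522). The other tested one, which was dim, had the opposite sign (0.20 ± 0.57 SE) and did not show that order. It read 35.8, 27.3, 53.9 and 6.1 in vitro, against 45.5, 2.5, 23.6 and 35.3 in vivo.

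The brightest J-domain probe sets belonged to DNAJC9, DNAJB1 and DNAJB6. DNAJC9, a chaperone of histones H3 and H4, averaged 3925 ± 200 in vitro and 4293 ± 664 in vivo (SD, n = 4 each), with a log2 fold change of -0.12 and an interval from -0.46 to 0.22. DNAJB6, which keeps polyglutamine proteins from aggregating, averaged 1762 ± 549 in vitro and 1434 ± 637 in vivo at one probe set (log2 fold change 0.34) and 1716 ± 222 in vitro and 1612 ± 228 in vivo at another (0.09). Its remaining tested probe set had -0.11. A dim one, not tested, read 12.6, 22.6, 22.1 and 3.6 in vitro, against 33.4, 32, 36 and 33 in vivo, without overlap. Another untested one was above background on 1 in vitro array only. DNAJB1, the heat-inducible partner of HSP70, read 1764.7, 1558.2, 1711.2 and 1685.2 in vitro, against 1617.3, 1937.2, 3326.2 and 1612.6 in vivo. In vivo array 3 stood alone above the others, and the log2 fold changes of its 2 probe sets were -0.27 and -0.37 (limma adjusted p = 0.705 and 0.805).

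**Figure D4:**
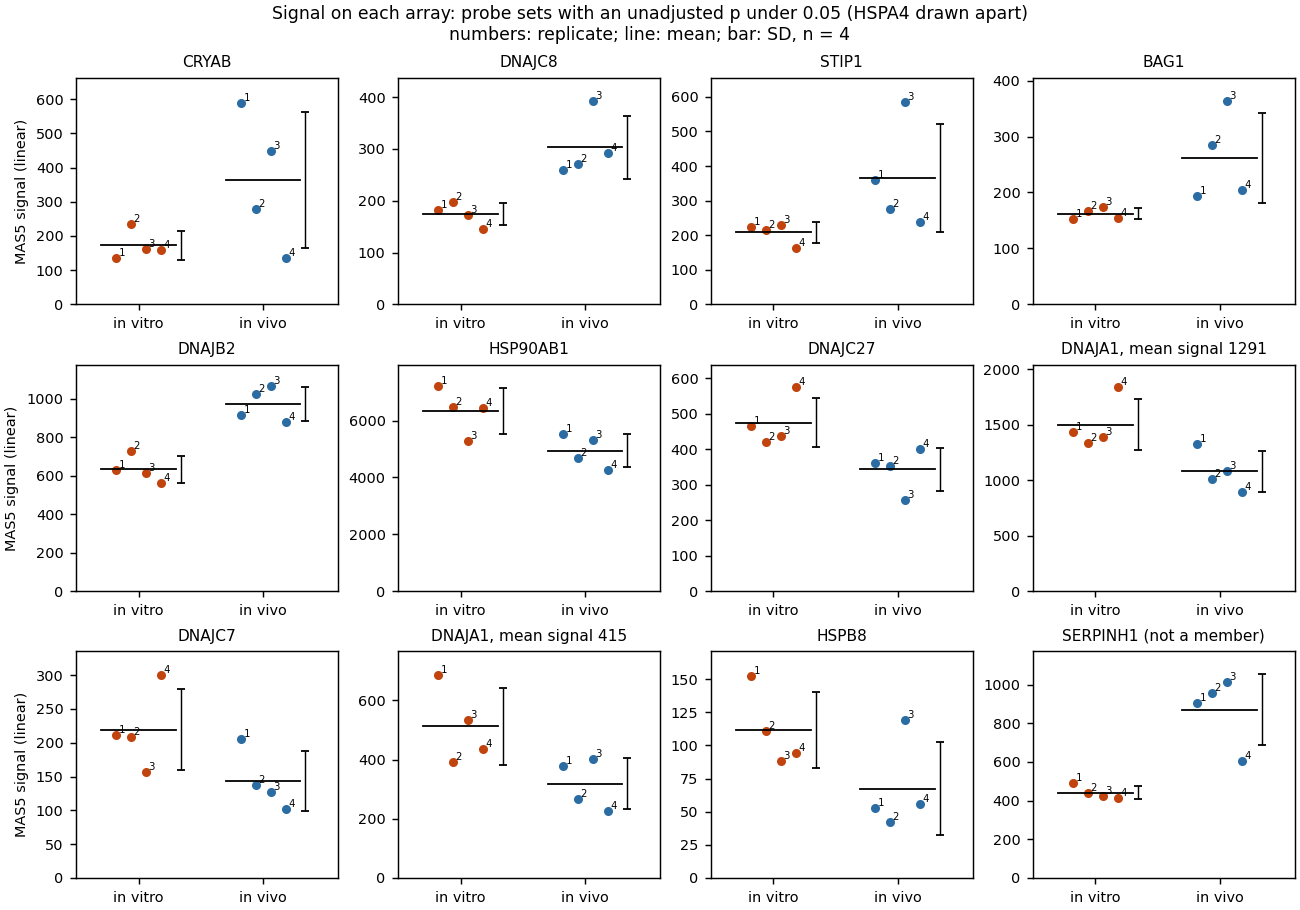
MAS5 signal (y axis, linear, from 0, scaled separately in each panel) on each array, in vitro on the left and in vivo on the right, for the 11 member probe sets outside HSPA4 with an unadjusted limma p under 0.05 and for SERPINH1, with replicate numbers, the mean as a line and the SD as a bar (n = 4). DNAJB2, DNAJC8, STIP1, BAG1 and SERPINH1 have every in vitro value below every in vivo value, and DNAJC27 and the brightest DNAJA1 probe set have every in vitro value above.

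BAG proteins release HSP70 from its substrate and link it to other machinery. Of 8 tested probe sets none passed, 4 were above 0 and 4 below it. BAG1, which couples HSP70 to the proteasome, read 152.8, 167.7, 173.3 and 154.7 in vitro, against 193, 285.3, 364.2 and 203.9 in vivo. All in vivo values were higher and more scattered (log2 fold change -0.62 ± 0.24 SE, limma adjusted p = 0.392). BAG3, a target of HSF1 that works with HSPB8, averaged 1266 ± 113 in vitro and 1151 ± 401 in vivo (log2 fold change 0.19 ± 0.22 SE), with its highest value, 1717.4, on in vivo array 4. BAG6, which shields hydrophobic segments of membrane proteins, had -0.20, and BAG4 had 0.33 and -0.01 at its tested probe sets. BAG2, which inhibits the ubiquitin ligase STUB1, had -0.15 and 0.56.

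Folding in the endoplasmic reticulum uses the lectin calnexin, which retains unfinished glycoproteins, and disulfide isomerases, which pair cysteines. None of 13 tested probe sets passed or had an unadjusted limma p under 0.05, with a median log2 fold change of 0.10. CANX read 5119, 5562.1, 5278.1 and 4920.1 in vitro, against 4509.8, 6053.6, 5924.1 and 5067.1 in vivo. The in vitro values sat inside the in vivo range, with a log2 fold change of -0.04 and an interval from -0.36 to 0.29. PDIA3, the isomerase that works with calnexin, averaged 594 ± 83.1 in vitro and 526 ± 101 in vivo (log2 fold change 0.18), and its dimmer probe sets had 0.59 ± 0.32 (SE, limma adjusted p = 0.559) and -0.11. PDIA6 had -0.05 at its brightest probe set, PDIA4 had 0.10 and PDIA5 had 0.24. PDIA2, an isomerase best known from the pancreas, had -0.53 ± 0.39 (SE).

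The heat shock factors were measured at 3 probe sets. HSF2, a factor active in germ cells and development, read 186.9, 190.8, 309.1 and 260.8 in vitro, against 224.1, 227.7, 241 and 192 in vivo (log2 fold change 0.07, interval -0.41 to 0.55). Both HSF1 probe sets lay under the filter on dim signals and were not tested. The first read 8.9, 11.4, 11.2 and 12.4 in vitro, against 70.4, 6.5, 54 and 26.9 in vivo, and the second 6.8, 14.2, 4 and 4.1 in vitro, against 30.4, 14.7, 30.1 and 35.9 in vivo. No in vitro array was above background at either, while 2 in vivo arrays were above it at the first and 3 at the second. The first probe set had its high values on in vivo arrays 1 and 3, as HSPH1 did, while in vivo array 2 lay below every in vitro array, so the groups overlapped and no fold is given. At the second the groups were apart only narrowly, by 14.7 on in vivo array 2 against 14.2 on in vitro array 2. The value of in vivo array 2 was below that array's background of 15.7. With in vitro signals raised to their arrays' background, the bound on the fold was 1.16 higher in vivo. It rests on signals near background and was not tested, so it sets no firm minimum.

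Probe sets of a gene often fell on both sides of 0. Of 38 genes with more than 1 tested probe set, 25 did so. The members' log2 fold changes centred near 0, so mixed signs alone do not show that probe sets differ. The matching share over all genes is not given here. The range between a gene's probe sets had a median of 0.44 and reached 1.92 for HSPA4. The 5 genes HSPA4, DNAJA1, DNAJC8, DNAJC27 and HSPB8 had mixed signs with an unadjusted limma p under 0.05 at a probe set.

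Signals of the members, like those of all tested probe sets, were more scattered between the pools matured in the animal. The SD of the log2 value was larger in vivo for 100 of the 132 tested members (75.8%). It was larger in vivo for 66.3% of all tested probe sets and for 67.8% of those with 1 symbol. The median SD was 0.29 in vitro and 0.43 in vivo for members, and 0.32 in vitro and 0.43 in vivo for all tested probe sets. For the chaperonin 16 of 18 probe sets, 9 of the 18 being of CCT2, had the larger SD in vivo, and for J-domain proteins 42 of 55. In vivo arrays 1 and 3 held the 2 highest in vivo values of 41 members (31.1%), against 25.4% of all tested probe sets, and arrays 2 and 3 those of 28 members (21.2%), against 13.4%. In vivo array 3 alone was the highest in vivo array for 45 members (34.1%), against 27.5% of all tested probe sets. The median deviation of the members from their 8-array means was 0.16 on in vivo array 3 and -0.13 on in vivo array 4, against 0.05 and 0.01 over all tested probe sets, and lay between -0.06 and 0.07 on the other arrays. In vivo array 3 had an EEF1A1 ratio of 1.44 and in vivo array 4 one of 3.68. Their beta-actin ratios were 5.68 and 6.75, and their GAPDH ratios 4.37 and 4.63. The part of RNA integrity in this order was not tested.

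**Figure D5:**
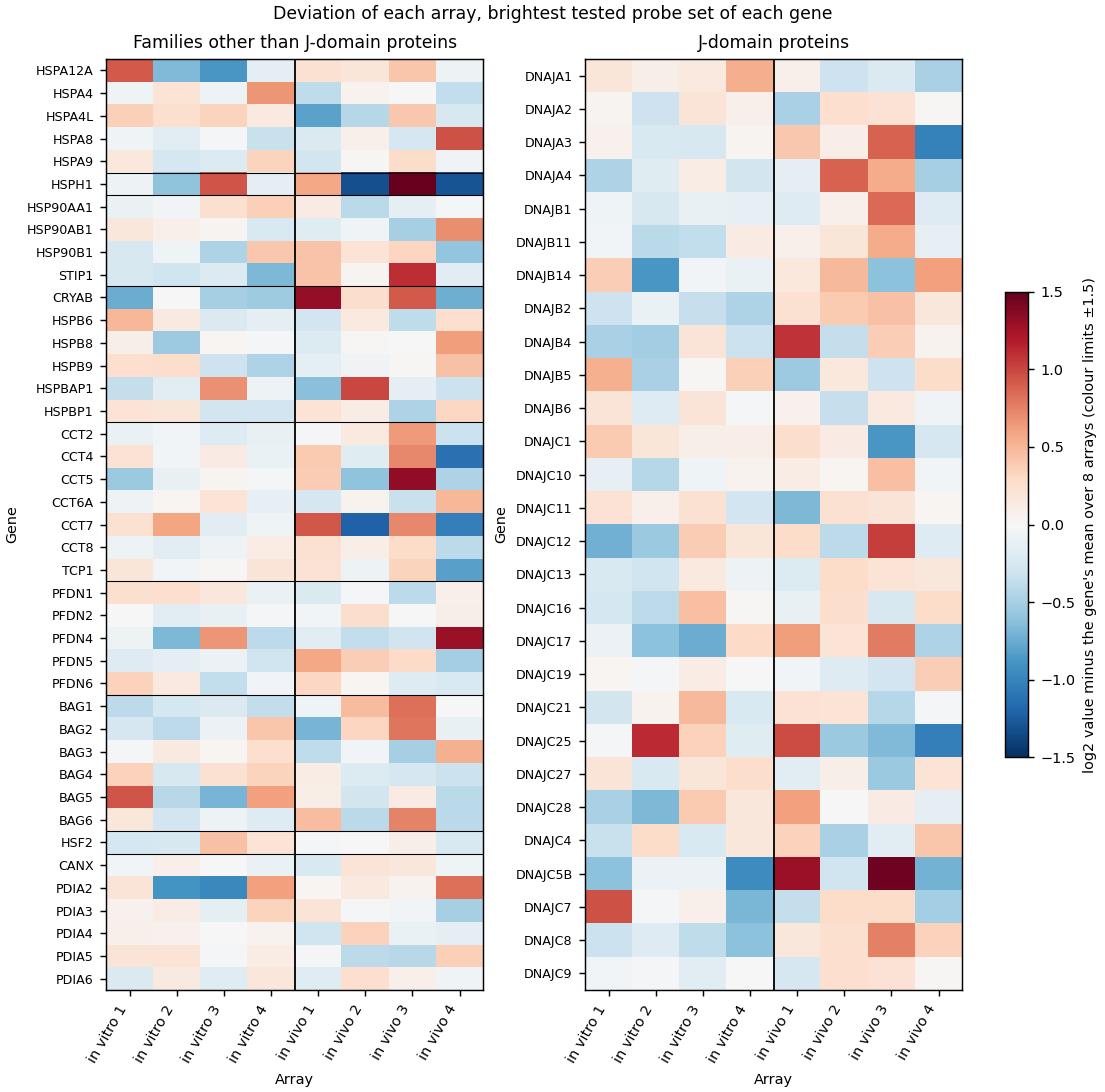
Log2 value of each array minus the gene's mean over the 8 arrays (colour, limits ±1.5), for the brightest tested probe set of each gene (rows, by family) on the in vitro arrays (left of the line) and the in vivo arrays (right). HSPH1, CRYAB, DNAJC5B and CCT5 are high on in vivo arrays 1 and 3 or on 3, and colours are paler on the in vitro side.

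Other genes of the folding network were read from a list of 80 co-chaperones, tubulin cofactors, endoplasmic reticulum quality control genes, unfolded protein response regulators and proteases, of which 60 were on the array and 55 were tested. In this list 0 rose and 0 fell by limma (adjusted p under 0.05), and 6 (10.9%) had an unadjusted p under 0.05, against 10.2% of all tested probe sets. A log2 fold change above 0 was measured at 16 and one below it at 39, with a median of -0.16, against 0.01 for all tested probe sets. The list takes the brightest probe set of each gene. For members taken in that way, 37 of 69 were below 0, with a median of -0.05. Among the 15 tested co-chaperones of HSP90 and HSP70, 14 were below 0, with a median of -0.28 and none under an unadjusted p of 0.05. Of all tested probe sets with 1 symbol, 48.7% were above 0, with a median of -0.01. That share is not limited to the brightest probe set of each gene. The list was chosen with earlier results of these data known, and its sign count was not tested.

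SERPINH1, the collagen chaperone of the endoplasmic reticulum, came closest to the threshold. It averaged 440 ± 34.2 in vitro and 869 ± 183 in vivo (SD, n = 4 each), with no overlap (log2 fold change -0.94 ± 0.20 SE, limma adjusted p = 0.0935). It passed with array weights (adjusted p = 0.0300), with the EEF1A1 ratio as a covariate (0.0142) and without in vivo array 4 (0.0172). The 6 markers of stroma and endothelium summed to 460.5 to 1068.6 in vitro and 414.4 to 704.6 in vivo, and they differed in direction. DCN averaged 20.0 ± 21.1 in vitro and 85.5 ± 52.8 in vivo (log2 fold change -1.85, limma adjusted p = 0.274), and VWF, lower without overlap, had -0.41. TAGLN averaged 230 ± 258 in vitro and 41.2 ± 16.7 in vivo (log2 fold change 1.82, adjusted p = 0.244), PECAM1 had 0.38, and COL1A1 and COL1A2 were not tested, being dim. The part of these cells in the SERPINH1 difference was not tested.

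URI1, a prefoldin-like protein, had -0.85 ± 0.32 (SE; limma adjusted p = 0.383), HSBP1, a small protein that binds HSF1, had -0.50 ± 0.21 (0.442), and TXNDC11, a thioredoxin-domain protein of the endoplasmic reticulum, had 0.41 ± 0.17 (0.421).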

How the data were processed

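Per the labels' protocols, total RNA of 4 oocytes per array was purified, amplified in 2 rounds and labelled with biotin. The deposited intensity values are linear signals from MAS5 (version not given), per the submitters' processing notes. Detection calls were not used. The 99 controls were not tested. Of the other 52766, 24956 had 1 gene symbol, 361 several and 27449 none listed. The 3 probe sets that pair a member with another symbol were left out. Entrez identifiers of all 167 members were found in the RefSeq table and 0 symbols changed. No sequences or coordinates are given.

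Values were taken as log2(signal + 8.2), 8.2 being the 25th percentile of non-control signals, so fold changes of dim transcripts are understated. Tested were probe sets whose mean log2 value over all arrays exceeded the 50th percentile, with limma 3.58.1 in R 4.3.3 (lmFit, eBayes with an intensity trend, Benjamini-Hochberg over all 26383 at 0.05). The fit was checked on simulated data. For a group with no array above background, a fold was given as a bound, with its signals raised to each array's background where they lay under it.

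Members and lists were chosen with earlier results of these data known. Named are, per family, any probe set past the threshold, up to 4 genes of smallest p, the 3 brightest genes, genes of known stress roles, and genes whose probe sets differ in sign with an unadjusted p under 0.05, and of the other folding genes the 4 of smallest p. Further genes named (CCT8, HSPB9, HSPA6, DNAJC7, DNAJC5B and DNAJC25) were chosen after their values were seen. The number of arrays limits the precision.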

Additional observations from a re-analysis of the deposited data

Results flagged for a closer look

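Among the tested members, 264 groups of 4 arrays were examined for an array far from the other 3, by a gap of more than 0.829 of the group's range, and 9 had one. Chance gives such an array in about 1 in 20 groups. In vitro array 2 was the low one for DNAJC27 at 404.3 (others 539.6 to 568.7), for DNAJC10 at 490.4 (652 to 683.2), for HSPB8 at 651.9 (948.2 to 1013.2) and for DNAJC11 at 9.3 (30.7 to 36.1). In vitro array 1 was low for DNAJC21 at 17.5 (37.4 to 39.2) and for PFDN6 at 8.9 (32.5 to 37.6). In vitro array 4 was high at a CCT2 probe set, at 1127 (764.9 to 808.8). In vivo array 4 was high for PDIA2 at 92.7 (49.5 to 54.8) and for PFDN4 at 1515.1 (472.8 to 547). The low values of DNAJC11, DNAJC21 and PFDN6 lay below their arrays' background.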

How the results depend on the processing

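The count of members past the threshold was 0 under every alternative tried except 1 (CRYAB) with the EEF1A1 ratio as a covariate. That 1 was 0.76% of the members, against 1.11% of all tested probe sets in that setting. Members with an unadjusted p under 0.05 numbered 13, and 8 without the intensity trend. They numbered 7 to 20 when each array was left out in turn, 7 without in vitro array 1 and 20 without in vivo array 4. The matching share of all tested probe sets is not given for these settings. Among the left-out fits, calls over all probe sets were also fewest without in vitro array 1 and most without in vivo array 4. The members' median log2 fold change stayed between -0.04 and 0.07. Between 0 and 24 members changed sign under an alternative, the most without in vivo array 3. Over all probe sets the 38 calls became 10 without the intensity trend, 88 with array weights, 292 with the EEF1A1 ratio and 58 with the beta-actin ratio as a covariate, and 18 to 97 with an array left out (18 without in vitro array 1, 21 without in vitro array 2 or 3, 71 without in vivo array 1 and 97 without in vivo array 4). Of the other folding genes, 0 passed, with 1 under array weights (SERPINH1), 2 with the EEF1A1 ratio (SERPINH1, and HERPUD1 at -1.09) and 0 to 1 with an array left out. The causes were not tested. Arrays of the same number did not deviate together (correlations -0.05 to 0.02), and the replicate block gave 43 calls over all probe sets, 0 among members and 11 members with an unadjusted p under 0.05. Other pseudocounts, filters and normalizations kept all counts within 1.5 times. Signals near background limit HSF1, HSPA6, HSP90AA1 and the 35 untested members.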
